A study of Mus musculus with 12 samples.

Results

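Embryoid bodies of a control mouse embryonic stem cell line were compared after 4 and after 2 days of differentiation with retinoic acid, by RNA sequencing. The comparison takes every library labelled scr (scramble) at these days, 2 libraries per day, which are 4 of the 12 libraries of the series. The cells were CCE-Nanog-GFP mouse embryonic stem cells, which carry a green fluorescent reporter of Nanog and were sorted for GFP before use; the control line holds a scramble short hairpin RNA (shSC, genotype labelled WT) and the other line one against cathepsin L (shCTSL). At Day 0 the cells grew on gelatin with the cytokine LIF, and at Day 2 and Day 4 they had spent 2 or 4 days as rotating aggregates without LIF in 10 µM all-trans retinoic acid, with the medium changed every other day. The study calls the 2 libraries of each group biological replicates, and it asked how proteolysis of the histone H2A tail by cathepsin L accompanies differentiation.

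Retinoic acid binds nuclear receptors that sit on DNA as heterodimers and switch from repressing to activating their targets, among them the Hox genes that give cells a position along the body axis and the enzymes that break retinoic acid down. Withdrawal of LIF removes a signal that holds stem cells in the naive pluripotent state. Embryoid bodies then form derivatives of several germ layers side by side, with an endoderm layer and a basement membrane at their surface.

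The Day 2 libraries held 27155553 and 20783323 counts and the Day 4 libraries 21885578 and 13434182, against 15510058 and 19344654 in the control line at Day 0. Levels are given below as normalized CPM, counts scaled to a common library total, with the 2 replicates in the order of their labels; CPM is not corrected for gene length, so levels of different genes are not ranked. Between replicates the log2 ratio of a gene had a standard deviation of 0.176 at Day 2 and 0.253 at Day 4. Averaged over genes, the variance exceeded counting noise 10.2-fold and 7.27-fold. This average includes Rn45s (below), and a few abundant loci with differing replicates can raise it, so it does not describe a typical gene. The unprocessed ribosomal transcript Rn45s took 0.17 and 0.726% of the counts at Day 2 and 1.43 and 1.06% at Day 4, so its share was higher in both Day 4 libraries, and its part in the results was not tested. Of 24495 genes in the table, 15325 passed the count filter and 4363 of these (28.5%) were called, that is, had an adjusted p under 0.05 in edgeR's quasi-likelihood test and a change of at least 1.5-fold. Day 4 was higher for 2023 called genes, 13.2% of those tested, and lower for 2340, 15.3%. Both Day 4 libraries lay beyond both Day 2 libraries in 4357 of the 4363, and in 11893 of all 15325 tested. Changes of at least 4-fold were counted for 477 genes higher and 382 lower, and changes of at least 8-fold for 224 higher and 86 lower. The median log2 change was -0.00 over all genes tested, and its absolute size was 1.15 among the called genes. "Rose" and "fell" are used below for called genes only, and in bulk RNA fewer cells of a type and less RNA per cell cannot be told apart.

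Cathepsin L (Ctsl), the protease that the other line's hairpin targets, read 134 and 144 CPM in the control line at Day 0, 372 and 394 at Day 2 and 478 and 423 at Day 4. Both Day 4 libraries lay above both Day 2 libraries, with a log2 change of 0.23 ± 0.067 (SE) that did not reach 1.5-fold (edgeR, adjusted p = 0.00911). In the shCTSL line, scaled within its own 6 libraries, Ctsl read 39.5 and 37.8 CPM at Day 0, 212 and 157 at Day 2 and 259 and 255 at Day 4, below the control line on every day. Among 21 cathepsins and other lysosomal genes, 6 rose and 15 were not called, with a median log2 change of 0.39. Among the rises were the peptidases Ctsa, Ctsb, Ctsc and Ctsh and the lysosomal membrane protein Lamp2. Ctsb read 218 and 209 CPM at Day 2 and 354 and 338 at Day 4, a 1.62-fold rise. Ctsh read 12.1 and 9.79 CPM at Day 2 and 22.5 and 18 at Day 4, 1.86-fold higher, from 0.0746 and 0.242 at Day 0. The calls of Ctsa and Ctsc sat at the cutoff: without Day 4 replicate 1 the log2 change of Ctsa was 0.52 and that of Ctsc 0.34, and without Day 2 replicate 2 (Ctsa, 0.57) or Day 2 replicate 1 (Ctsc, 0.50) neither was called. The aspartic protease Ctsd, at 283 and 280.0 and then 394 and 355 CPM, and the sphingolipid activator Psap, at 581 and 544 and then 651 and 639.7, had Day 4 libraries above both Day 2 libraries without reaching 1.5-fold.

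The 12 genes with the highest log2 changes are given in this paragraph and the next. Col3a1, a fibrillar collagen of loose connective tissue, read 3.55 and 3.35 CPM at Day 2 and 332 and 330.3 at Day 4, 95.5-fold higher (log2 change 6.58 ± 0.095; edgeR, adjusted p = 3.04e-14). Cxcl12, the chemokine that attracts cells bearing Cxcr4, went from 1.84 and 1.15 to 109.6 and 139.7 CPM, 80.5-fold. The hormone somatostatin (Sst) read 0.435 and 0.264 CPM at Day 2 and 55.9 and 74.8 at Day 4. Agtr2, an angiotensin receptor, had 1 count over both Day 2 libraries and 441 over both Day 4 libraries. At Day 4 Agtr2 thus had 621 times as many per normalized library total (95% interval for counting error alone, 111 to 24582). Its fitted log2 change of 8.85 was 7.84 without Day 2 replicate 1 and 10.82 without Day 2 replicate 2, since 1 count decides it. The potassium channel genes Kcnq5, at 0.067 and 0.132 and then 11.9 and 9.57 CPM, and Kcnj2, at 0.435 and 0.617 and then 45.4 and 30.7 CPM, rose with them. Fat4, a giant protocadherin of planar polarity, rose from 1.77 and 1.98 to 116 and 91.8 CPM, and the transmembrane collagen Col25a1 from 0.636 and 0.749 to 38.7 and 47.9. Lrrc7, a protein of synaptic densities, had a log2 change of 5.60 and the interferon-inducible GTPase Iigp1 one of 5.80, which was 6.42 without Day 2 replicate 1.

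In 2 of the 12 highest genes the Day 4 replicates stood apart. Ranbp3l, which carries SMAD proteins out of the nucleus, read 0.234 and 0.176 CPM at Day 2 and 57.2 and 11 at Day 4, and Fxyd2, a regulator of the sodium pump, 0.335 and 0.529 and 50 and 17.1. Every Day 4 value was far above Day 2 in both, while replicate 1 exceeded replicate 2 5.01-fold for Ranbp3l and 2.86-fold for Fxyd2, with 0.5 CPM added to each value in this paragraph's ratios of replicates. Without Day 4 replicate 1 the log2 change of Ranbp3l was 5.68 instead of 7.35, and without replicate 2 it was 8.06; that of Fxyd2 was 5.33 without replicate 1 instead of 6.34. Other genes higher in replicate 1, named after their values were seen, were the serine protease homologue Prss35 (4.66-fold), the lysyl oxidase relative Loxl4 (3.57-fold) and Cnnm1 (2.80-fold). In the opposite direction stood Ngfr, 2.06-fold higher in Day 4 replicate 2.

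The 8 largest rises in CPM started with H19. This maternally expressed noncoding RNA read 851 and 926 CPM at Day 2 and 2375 and 2577 at Day 4, 2.79-fold higher (log2 change 1.48 ± 0.061; edgeR, adjusted p = 3.36e-10). Igf2, the fetal growth factor next to H19, went from 306 and 312 to 1129 and 1316 CPM, 3.96-fold. Both genes were low at Day 0, at 28.1 and 29.1 CPM for H19 and 17.6 and 19 for Igf2, so both later days lay above it. Peg3, a paternally expressed zinc finger gene, read 1043 and 961 CPM at Day 2 and 2718 and 2264 at Day 4, 2.49-fold higher. The remaining rises of this size were Igfbp5, Ecm1, Chd3, Vcan and Col4a1. Ecm1, a secreted matrix protein, rose 19.5-fold, from 50.9 and 47.2 to 883 and 1034 CPM. Chd3, an ATPase of the NuRD chromatin remodeler, rose 6.01-fold, from 117 and 110.0 to 739.8 and 624 CPM. Vcan, a large matrix proteoglycan, rose 8.43-fold, from 72.4 and 79.8 to 681 and 599 CPM.

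**Figure D1:**
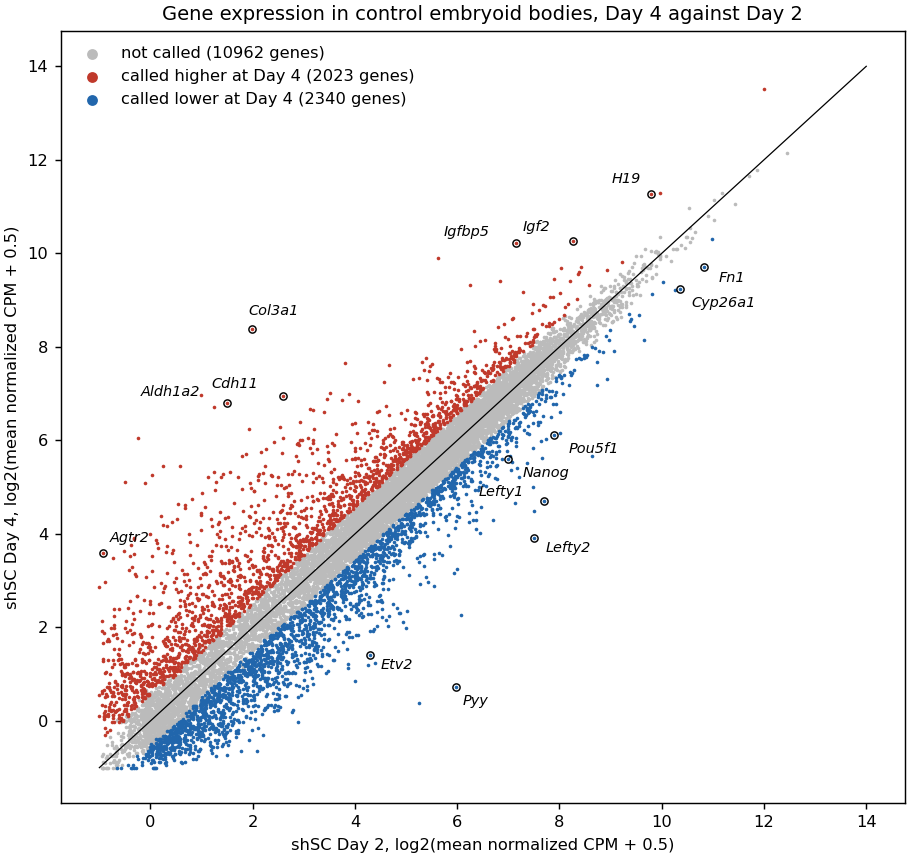
Control line at Day 2 (horizontal) and Day 4 (vertical) as log2 of mean normalized CPM plus 0.5 for the 15325 genes tested, 1 point per gene, with the 2023 genes called higher in red, the 2340 called lower in blue and named genes circled. Col3a1, Cdh11 and Aldh1a2 lie far above the diagonal, and Pyy, Lefty2 and Lefty1 far below it.

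The lowest log2 changes included gut and hypothalamic peptides. Pyy, the gut hormone peptide YY, read 0 and 0 CPM at Day 0, 55.2 and 69.3 at Day 2 and 1.4 and 0.902 at Day 4. It was high at Day 2 only, and the fall was 51.5-fold (log2 change -5.69 ± 0.19; edgeR, adjusted p = 1.27e-10). Vstm2l, a secreted immunoglobulin-domain protein, had the same order of days, with 0.746 and 0.604, then 35 and 40.1, then 0.655 and 0.971 CPM. Trh, the thyrotropin-releasing hormone gene, instead read lower at each step, with 201 and 209 CPM at Day 0, 66.6 and 66.7 at Day 2 and 4.67 and 3.95 at Day 4. Sp8, a zinc finger factor of limb and forebrain, read 15 and 16 CPM at Day 2 and 1.31 and 1.32 at Day 4, 11.8-fold lower. The muscle phosphoglycerate mutase Pgam2, the phosphatase subunit Ppp2r2c, the milk protein gene Csn3 and the secreted Nxph4 fell between 8.37-fold and 11.1-fold. Porcn, the enzyme that adds the lipid which Wnt proteins need for secretion, read 29.5 and 34.3 CPM at Day 0, 190.3 and 172 at Day 2 and 19.4 and 24.6 at Day 4, so that Day 4 lay back at or below the Day 0 values after a 8.35-fold fall. By CPM the largest falls were Fn1, Mdk, Cyp26a1, Slc2a3, Glud1, Col18a1, Ski and Slc2a1. Glud1, the glutamate dehydrogenase of mitochondria, read 726 and 749.7 CPM at Day 0, 790.3 and 811 at Day 2 and 278 and 288 at Day 4, a 2.83-fold fall. The growth factor midkine (Mdk) read 2037 and 1997 CPM at Day 2 and 1151 and 1383 at Day 4; without Day 4 replicate 1 its log2 change of -0.67 was -0.54 and not called, and its exons overlap Chrm4 on the opposite strand. Ski, a corepressor of SMAD signalling, fell 2-fold, from 712 and 684 to 350.2 and 347 CPM.

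Gene lists of cell states, pathways and machineries are described by the number of tested members that rose or fell, beside 13.2% higher and 15.3% lower over all genes tested, and by their median log2 change beside -0.00. Across the lists, 366 members and singly named genes were called, and 51 of these calls ended when 1 of the libraries was left out; such a library is named with the gene.

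**Figure D2:**
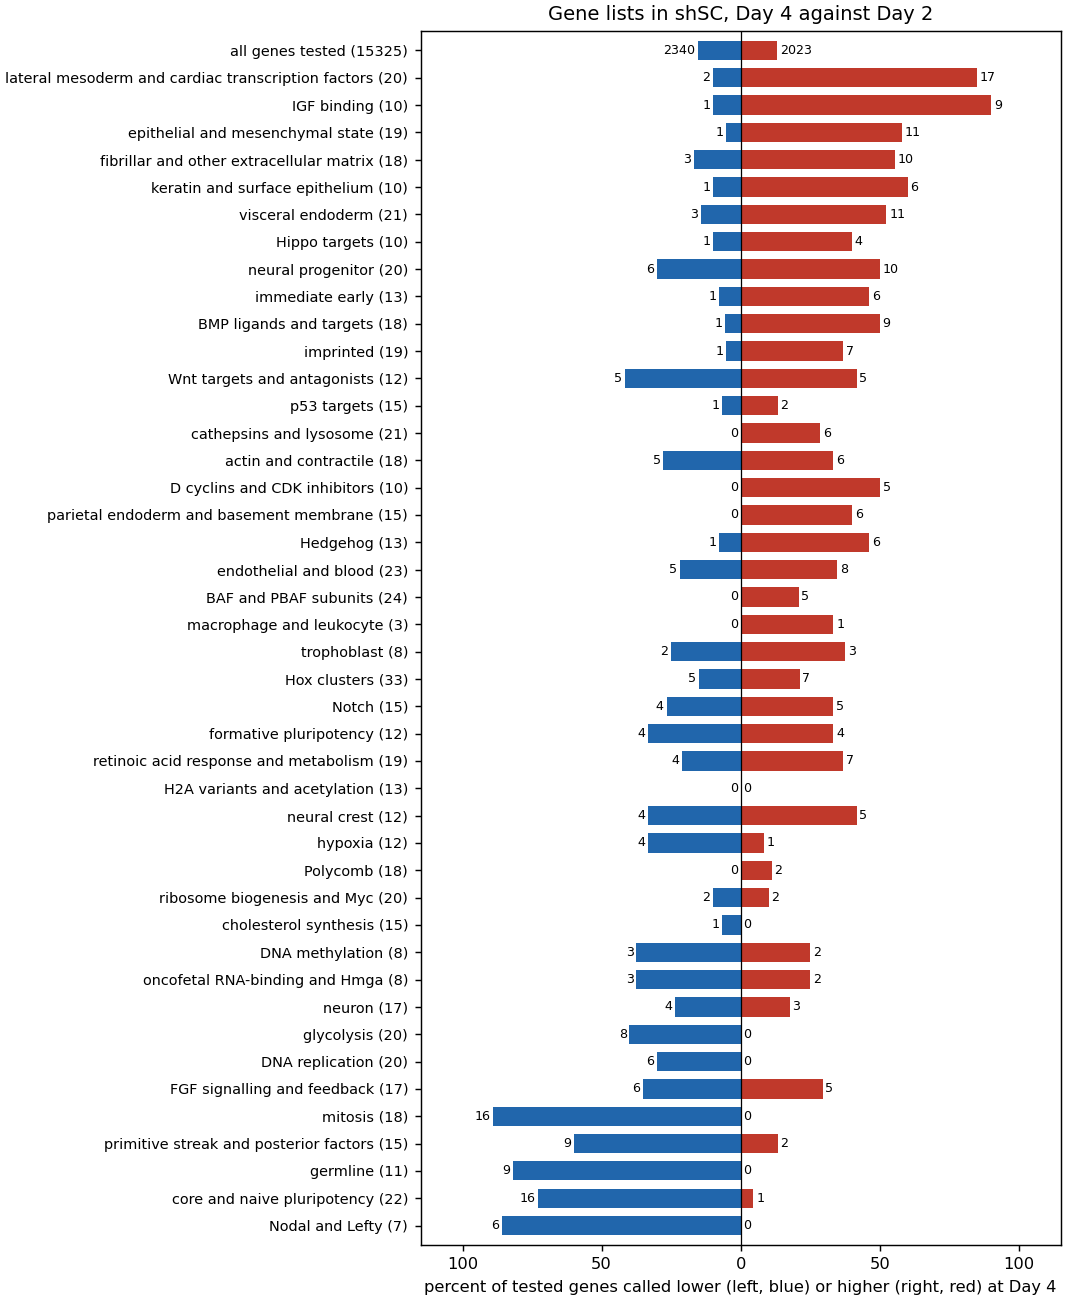
Percent of each gene list's tested members called lower (blue bars, to the left of 0) and higher (red bars, to the right) at Day 4 against Day 2, with the number of genes at each bar, the number tested after each name, and lists ordered by median log2 change below a bar for all genes. Lateral mesoderm and IGF binding genes were called mostly higher (17 of 20 and 9 of 10), and Nodal, pluripotency, germline and mitosis genes mostly lower (6 of 7, 16 of 22, 9 of 11 and 16 of 18).

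Core and naive pluripotency factors keep stem cells self-renewing. Of 22 tested, 16 fell and 1 rose, with a median log2 change of -1.37. Pou5f1 (Oct4), the POU factor at the center of this network, read 1512 and 1528 CPM at Day 0, 241 and 231 at Day 2 and 72.4 and 64.8 at Day 4, and the last step was a 3.43-fold fall (log2 change -1.78 ± 0.064; edgeR, adjusted p = 9.93e-11). Nanog, the homeodomain factor whose reporter was used for sorting, read 535 and 529.8 at Day 0, 125 and 129 at Day 2 and 48.9 and 47.4 at Day 4 (log2 change -1.39 ± 0.061; edgeR, adjusted p = 5.45e-10). Sox2, the partner of Oct4 on DNA, went from 758 and 838 to 185 and 196 and then 85.1 and 75.7 CPM (log2 change -1.24 ± 0.073; edgeR, adjusted p = 1.12e-08). No Day 4 library overlapped a Day 2 library for these factors, and all were still counted at Day 4. The largest falls were in the chromatin-associated Utf1, from 46.7 and 46.1 to 5.72 and 8.04 CPM (6.95-fold), and in Dppa4, a DNA-binding protein that works with Dppa2, from 48 and 54.6 to 10.8 and 11.7 CPM (4.58-fold). Klf5, a zinc finger factor also found in epithelia, was the member that rose, from 48.9 and 45.1 to 92.3 and 72.1 CPM, after 297 and 314 at Day 0. Its relative Klf4 read 21.1 and 21.7 and then 29.8 and 25.6 CPM, with a log2 change of 0.38 under the cutoff. Tbx3, which extraembryonic and mesodermal cells also express, read 293 and 269 and then 274 and 239.9 CPM and was not called. Summed over the 22 members, the list held 10041 and 10141 CPM at Day 0, 2053 and 2059 at Day 2 and 1124 and 999.6 at Day 4.

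Formative genes mark the state between naive pluripotency and germ layers. Of 12 tested, 4 rose and 4 fell, with a median log2 change of 0.07. Otx2, a factor of anterior epiblast and forebrain, read 10.5 and 10.3 CPM at Day 0, 0.737 and 0.705 at Day 2 and 0.175 and 0.0693 at Day 4, and its log2 change of -2.38 was -3.26 without Day 4 replicate 1. Pou3f1 (Oct6) moved upward again, from 1.64 and 2.12 to 6.81 and 5.2 CPM, below its 18.1 and 20.3 of Day 0. The other rises were Dnmt3a, Grhl2 and, at low level, Fgf5, which was not called without Day 2 replicate 2 (log2 change 0.79). Germline genes moved downward: of 11 tested, 9 fell and 2 were not called, with a median log2 change of -1.0. Mael, a piRNA pathway protein, read 13.4 and 15.2 CPM at Day 2 and 3.01 and 3.47 at Day 4, 4.44-fold lower, and the synaptonemal complex gene Sycp3, whose exons overlap Chpt1 on the opposite strand, 5.19 and 7.45 and then 1.48 and 1.59. The retinoic acid-induced meiosis gene Stra8 went from 1.34 and 1.15 CPM at Day 0 to 571 and 605 at Day 2 and 357 and 445 at Day 4, with a log2 change of -0.56 that was just under the cutoff. Prdm1, a repressor in germ cell precursors and visceral endoderm, fell 2.49-fold, from 108 and 111 to 39.9 and 48.6 CPM. The calls of Sycp1 and Nanos3 ended without 1 library: the log2 change of Sycp1 was -0.51 without Day 2 replicate 1 and -0.50 without Day 4 replicate 2, and Nanos3 had adjusted p values of 0.0574 and 0.0641 in edgeR's test without Day 2 replicate 1 and Day 4 replicate 1.

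Nodal is a TGF-beta ligand that patterns the epiblast, and the Lefty proteins are secreted inhibitors that its signal induces. Of 7 tested genes of this pathway, 6 fell and 1 was not called, with a median log2 change of -1.90. Lefty2 read 149.8 and 160.0 CPM at Day 0, 181 and 182 at Day 2 and 14.9 and 14.1 at Day 4, 12.4-fold lower (log2 change -3.64 ± 0.072; edgeR, adjusted p = 7.12e-13). Lefty1 read 64 and 71.1, then 205 and 209.8, then 23.8 and 27.3 CPM, 8.17-fold lower (log2 change -3.03 ± 0.078; edgeR, adjusted p = 5.6e-12). Both genes were low in both Day 4 libraries. They are close paralogs, whose reads can be hard to assign, and neighbors 35.9 kb apart on chromosome 1 (build mm9). Nodal itself read 82.4 and 82.8 CPM at Day 0, 84.8 and 79.1 at Day 2 and 24.1 and 19.2 at Day 4, so that it held its level to Day 2 and was 3.74-fold lower at Day 4. Pcsk6, a protease that cleaves the Nodal precursor, fell 4.01-fold, from 49.1 and 43 to 12 and 10.8 CPM. The coreceptor Tdgf1 (Cripto) read 603 and 639.5 CPM at Day 0 and fell from 13 and 14.1 at Day 2 to 8.25 and 5.34 at Day 4. The activin receptor Acvr2b, at 214 and 233 and then 186 and 174 CPM, was the member not called.

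Primitive streak and posterior factors guide cells into mesoderm and the tail end. Of 15 tested, 9 fell and 2 rose, with a median log2 change of -0.95. Cdx1, a direct retinoic acid target that feeds into Hox genes, read 3.58 and 3.2 CPM at Day 0, 46.6 and 38.9 at Day 2 and 7.6 and 7.14 at Day 4, 5.78-fold lower. Wnt3a, a ligand of the posterior growth zone, fell 6.88-fold, from 5.22 and 4.45 to 0.568 and 0.902 CPM. Lhx1, a LIM factor of node and intermediate mesoderm, read 0.298 and 0.0604 CPM, then 33.5 and 31.7, then 5.55 and 10.9, so its level was highest at Day 2. The streak factors T and Mixl1 stayed low, with 0.502 and 0.397 CPM at Day 2 and 0.349 and 0.139 at Day 4 for T and 0.435 and 0.22 and 0.218 and 0.139 for Mixl1. Eomes, a T-box factor of streak, endoderm and trophoblast, went from 19.7 and 18.4 to 13.5 and 8.6 CPM; without Day 4 replicate 2 its log2 change of -0.75 was -0.50 and not called. Wnt3, at 0.536 and 0.705 and then 0.175 and 0.139 CPM, was not called without Day 2 replicate 2 or without Day 4 replicate 1 (edgeR, adjusted p = 0.0532 in each). The rises were Wnt5a, a ligand of the planar polarity branch, 9.2-fold from 4.22 and 3.39 to 38.8 and 31.7 CPM, and the homeobox gene Evx1, at 0.067 and 0.0882 and then 0.655 and 0.693 CPM.

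Retinoic acid is made by aldehyde dehydrogenases, bound in the cytoplasm by Crabp proteins, sensed by nuclear receptors and degraded by Cyp26 enzymes. Of 19 tested genes of these steps, 7 rose and 4 fell, with a median log2 change of -0.01. Aldh1a2, the main synthesizing enzyme of early embryos, read 1.49 and 1.57 CPM at Day 0, 1.98 and 2.69 at Day 2 and 101 and 119.7 at Day 4, 47.8-fold higher (log2 change 5.58 ± 0.13; edgeR, adjusted p = 2.92e-12). It was near its Day 0 level in both Day 2 libraries and high in both Day 4 libraries. Rdh10, which makes the retinaldehyde that Aldh1a2 uses, rose 2.48-fold, from 11.1 and 9.96 to 25.8 and 26.6 CPM, and Dhrs3, which turns retinaldehyde back into retinol, 1.59-fold, from 180.0 and 177 to 282 and 286. Rbp4, the carrier of retinol in blood and a product of visceral endoderm, rose 13-fold, from 4.49 and 5.16 to 69.6 and 54.9 CPM. Cyp26a1, the degrading enzyme with the fastest response to retinoic acid, read 1.57 and 0.846 CPM at Day 0, 1335 and 1291 at Day 2 and 576 and 626 at Day 4. Its Day 4 level was 2.18-fold lower than at Day 2 and still far above Day 0 in both libraries (log2 change -1.13 ± 0.069; edgeR, adjusted p = 1.59e-08). Its relatives were not called: Cyp26b1 read 483 and 463 and then 616 and 605 CPM, and Cyp26c1, which lies 4.41 kb from Cyp26a1 on chromosome 19 (mm9), 17.7 and 18.1 and then 14 and 12, lower in both Day 4 libraries. Crabp2, which delivers the ligand to its receptors, fell 2.35-fold, from 127 and 125 to 47.1 and 61.1 CPM, and Stra6, the membrane receptor for the retinol carrier, was not called at 226 and 229 and then 173 and 208 CPM after 0.373 and 0.121 at Day 0. Calls that rested on 1 library here were Crabp1 (log2 change -0.58 without Day 4 replicate 1), Rxrg (edgeR, adjusted p = 0.258 without Day 2 replicate 1 and 0.198 without Day 4 replicate 1), Aldh1a1 (0.0855 and 0.062 without the same libraries) and Aldh1a3 (not called without either Day 2 replicate or Day 4 replicate 1, where its log2 change was 0.85).

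Among the receptors, Rarb rose 2.3-fold, from 81.9 and 80.9 to 195 and 179 CPM, Rarg read 97.7 and 92.3 and then 61.1 and 69.1, under the cutoff, and Rara 122 and 112 and then 109 and 123. Rarb and Cyp26a1 thus moved in opposite directions after Day 2, both being nearly uncounted at Day 0, at 0.224 and 0.483 CPM for Rarb. The promoters of both hold a direct repeat of receptor hexamers spaced by 5 bases (DR5), the best known form of retinoic acid response element. Of the 27025 genes with promoters of 300 bases in RefSeq (GRCm38.p6), 31 (0.115%) hold a DR5 on either strand in any of their promoters. Of the 15325 genes tested, 11634 matched a promoter and 7 (0.0602%) hold one, and of 15 matched genes of the retinoic acid list these 2 do. The stretches shown run 5′ to 3′ on the gene's strand up to the base before its start, with the DR5 in capitals, from region chr14:16575477-16575626 (minus strand) for Rarb and chr19:37697658-37697807 (plus strand, where the repeat reads on the opposite strand) for Cyp26a1. A match describes the letters only.
Rarb: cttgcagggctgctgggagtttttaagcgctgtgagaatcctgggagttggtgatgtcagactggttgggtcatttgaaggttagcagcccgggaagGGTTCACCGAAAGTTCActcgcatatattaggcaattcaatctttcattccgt
Cyp26a1: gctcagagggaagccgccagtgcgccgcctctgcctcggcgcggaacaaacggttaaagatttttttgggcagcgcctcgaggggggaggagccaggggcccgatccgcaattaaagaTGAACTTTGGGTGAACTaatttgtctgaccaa

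Hox genes sit in 4 clusters, and retinoic acid turns on the 3′ members first. Of 33 tested, 7 rose and 5 fell, with a median log2 change of 0.17. All 39 listed genes together, tested or not, held 13.9 and 13.9 CPM at Day 0, 1749 and 1794 at Day 2 and 1484 and 1612 at Day 4. Hoxb1 read 0 and 0.0604 CPM at Day 0, 137 and 139.9 at Day 2 and 18.4 and 31.1 at Day 4, 5.76-fold lower (log2 change -2.53 ± 0.15; edgeR, adjusted p = 1.14e-08). Hoxd1 read 20.9 and 19.7 CPM at Day 2 and 5.63 and 8.11 at Day 4, 3.03-fold lower. Hoxb2, 10.1 kb from Hoxb1 on chromosome 11 (mm9), was lower in both Day 4 libraries but not called, at 164 and 169 and then 126 and 147 CPM, and Hoxa2, at 12.7 and 11.8 and then 13.3 and 14.7, was not called either. Hoxa3 rose 1.63-fold to 71.2 and 78.8 CPM. In the middle of the clusters Hoxa6 rose 2.99-fold to 4.72 and 4.72 CPM and Hoxc6 2.74-fold to 16.4 and 14.4. Hoxa5 stayed uncalled at 194 and 205 and then 175 and 191 CPM. Hoxb8 fell from 189 and 195 to 120.0 and 129 CPM and Hoxb9 from 77.3 and 82.9 to 52.8 and 52.4; without Day 4 replicate 1 the log2 change of Hoxb8 was -0.57, and without Day 2 replicate 2 that of Hoxb9 was -0.56, neither called. Of the other rises, 4 also ended without 1 library: Hoxa4 (0.49 without Day 2 replicate 1 and 0.56 without Day 4 replicate 2), Hoxb13 (0.53 without Day 2 replicate 2 and 0.44 without Day 4 replicate 2), Hoxc13 (0.75, adjusted p = 0.0514 in edgeR's test, without Day 2 replicate 1) and Hoxd13 (0.67 without Day 2 replicate 2 and 0.50 without Day 4 replicate 2).

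Lateral mesoderm gives rise to heart, body wall and the lining of the body cavities. Of 20 transcription factors of these tissues, 17 rose and 2 fell, with a median log2 change of 1.6, and their summed level went from 20.2 and 17.9 CPM at Day 0 to 427 and 428 at Day 2 and 817 and 999 at Day 4. Tcf21, a bHLH factor of epicardium and body cavity mesothelium, read 0.536 and 0.661 CPM at Day 2 and 10.4 and 16.6 at Day 4, 22.3-fold higher (log2 change 4.48 ± 0.29; edgeR, adjusted p = 5.98e-08). Tbx18, a T-box factor of the same tissues, read 1.41 and 0.793 and then 17.9 and 30.1 CPM, 20.8-fold higher. Both genes were near 0 at Day 0 and higher in Day 4 replicate 2 than in replicate 1. Foxf1, a forkhead factor of splanchnic mesoderm, rose 8.77-fold, from 7.03 and 6.79 to 56.2 and 65.7 CPM. Hand1, a bHLH factor of heart and extraembryonic mesoderm, rose from 1 and 0.485 to 8.69 and 8.18 CPM, with a log2 change of 3.44 that was 4.10 without Day 2 replicate 1, and Isl1, of the second heart field, rose 6.71-fold to 12.3 and 13.8. The GATA factors of heart and endoderm were counted on both days: Gata4 read 27 and 26.7 and then 72.6 and 80.9 CPM, Gata5 4.69 and 4.54 and then 33.1 and 42, and Gata6, which the study used as a differentiation marker, 1.04 and 0.906 at Day 0, 89.9 and 86.7 at Day 2 and 140.4 and 172 at Day 4 (log2 change 0.82 ± 0.082; edgeR, adjusted p = 1.83e-06). The Gata6 exons overlap a gene on the opposite strand. Mef2c, a muscle and vessel factor, read 2.61 and 2.95 and then 11.2 and 5.06 CPM, and its log2 change of 1.6 was 0.87 without Day 4 replicate 1. The members that fell were Nkx2-5, a cardiac homeodomain factor, from 7.67 and 6.17 to 3.54 and 2.64 CPM, and Meox1, a somite factor, from 90 and 102 to 44 and 61.4. Wt1, of mesothelium and kidney, was not called at 55.5 and 59.6 and then 75.4 and 86.1 CPM.

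**Figure D3:**
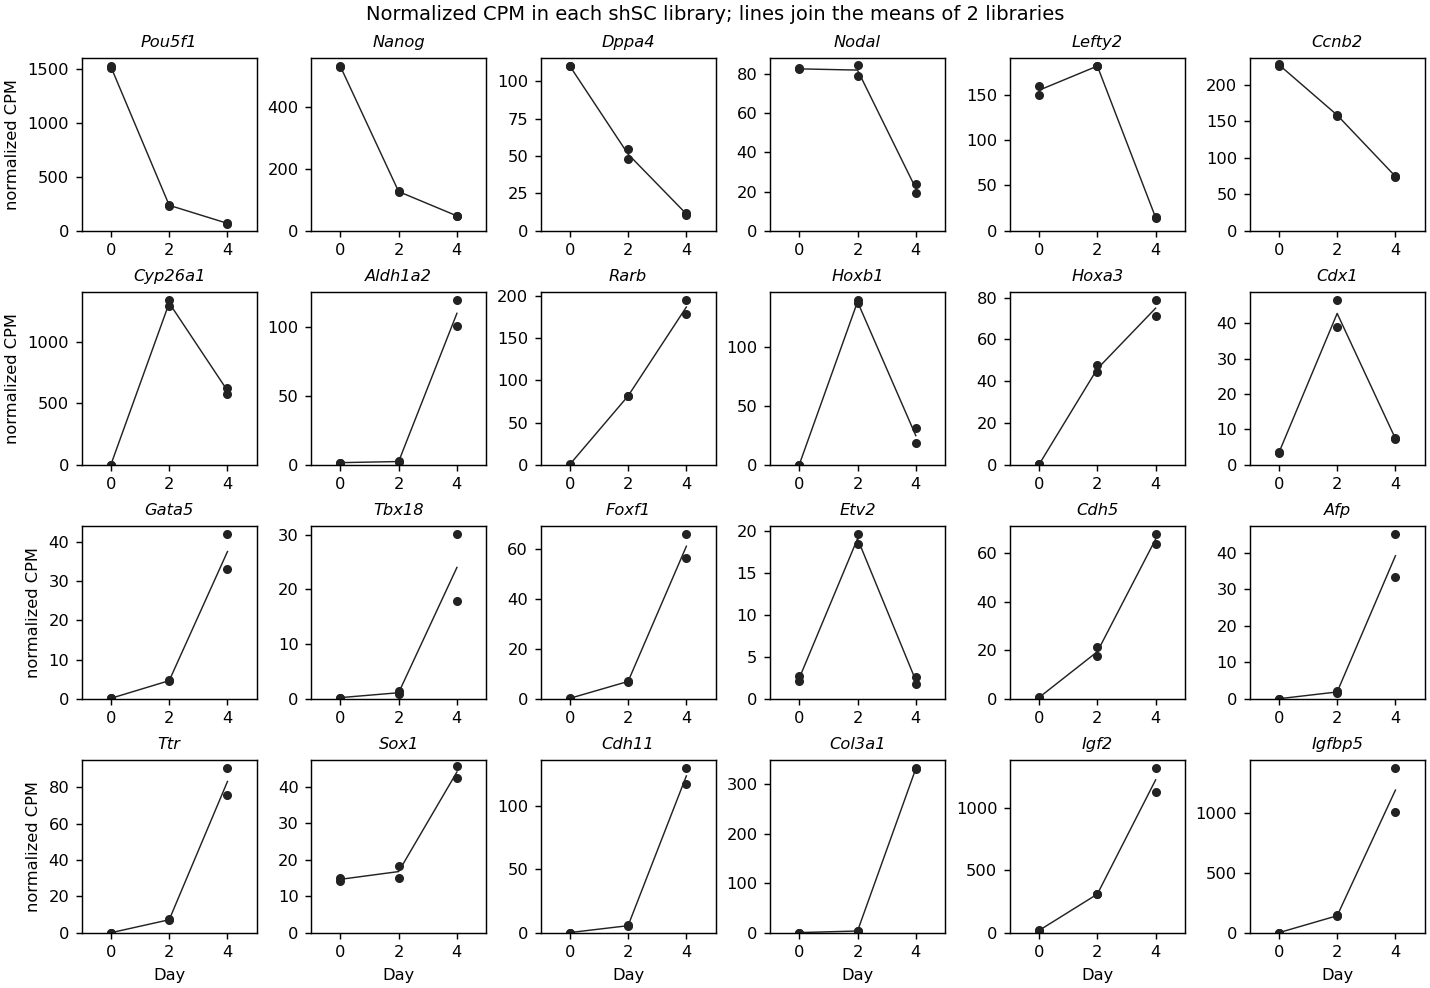
Normalized CPM (vertical, from 0 and scaled for each gene) in each control library at Day 0, Day 2 and Day 4 (horizontal) for 24 genes of several groups, 1 point per library with lines joining the means of 2 libraries. Hoxb1, Cdx1 and Etv2 peak at Day 2, and Aldh1a2 and Col3a1 are high at Day 4 only.

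Contractile genes, which include those of heart muscle, moved both ways, with 6 of 18 higher, 5 lower and a median log2 change of 0.37. Acta2, smooth muscle actin, rose 13.4-fold, from 4.19 and 3.79 to 61.6 and 45.4 CPM, the actin-binding Tagln 2.15-fold, from 26.6 and 23.6 to 60.5 and 47.1, and tropomyosin Tpm1 2.22-fold, from 204 and 215 to 520.0 and 411. The atrial myosin heavy chain Myh6 fell from 5.06 and 5.03 to 0.786 and 0.555 CPM, and the atrial light chain Myl7 from 8 and 7.58 to 2.14 and 1.32. The muscle filament gene Des fell 3.48-fold. The skeletal actin Acta1 was not called without Day 4 replicate 1 (log2 change 0.56), and the troponin gene Tnni1, which rose from 0.268 and 0.661 to 2.1 and 2.36 CPM, had a log2 change of 3.01 instead of 2.31 without Day 2 replicate 2.

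Blood vessels and blood arise from shared mesodermal precursors. Of 23 genes tested, 8 rose and 5 fell, with a median log2 change of 0.22. Etv2, the ETS factor that starts the vessel and blood program, read 2.16 and 2.72 CPM at Day 0, 18.5 and 19.7 at Day 2 and 1.7 and 2.64 at Day 4, 9.13-fold lower (log2 change -3.19 ± 0.18; edgeR, adjusted p = 6.17e-09). Tal1, a bHLH factor of the same step, fell 2.03-fold, from 25.8 and 26 to 12.1 and 13.5 CPM, and the VEGF receptor Flt1 2.42-fold, from 24 and 25.4 to 11 and 9.15. The endothelial cadherin Cdh5 rose from 17.6 and 21.2 to 67.8 and 63.7 CPM and the receptor Tie1 from 17.4 and 18.5 to 63 and 58.4. Kdr, the main VEGF receptor and another marker used in the study, read 2.09 and 2.17 CPM at Day 0, 94.6 and 97.8 at Day 2 and 107 and 109 at Day 4. Its Day 4 libraries lay above both Day 2 libraries by a log2 change of 0.17 ± 0.059, under the cutoff (edgeR, adjusted p = 0.0237). Gata2, a zinc finger factor of blood precursors, neurons and trophoblast, rose 5.21-fold, from 42.5 and 36 to 191 and 219.8 CPM. The red cell factor Gata1 was low, at 0.402 and 0.132 and then 0.262 and 0.416 CPM. The embryonic globin Hbb-y rose 6.51-fold at low level, from 0.134 and 0.0882 to 0.786 and 0.763 CPM (6 and 29 counts over the libraries of each day), and the globin genes Hbb-bh1, Hba-x and Hba-a1 did not pass the count filter. The calls of Eng and Lmo2 ended without Day 4 replicate 1 (log2 changes 0.46 and -0.46), that of Eng also without Day 2 replicate 2 (0.54), and that of Esam without Day 2 replicate 1 (0.50) or Day 4 replicate 2 (0.56). Of 8 macrophage and leukocyte genes 3 passed the filter, with 1 higher and a median log2 change of 0.20: the receptor Csf1r, whose exons overlap Hmgxb3 on the opposite strand, read 0.067 and 0.0882 and then 0.742 and 0.832 CPM, and the pan-leukocyte Ptprc was not tested.

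Visceral endoderm surrounds the early embryo and secretes serum proteins. Of 21 genes tested, 11 rose and 3 fell, with a median log2 change of 0.73. The summed level of all 22 listed genes was 501 and 535 CPM at Day 2 and 838 and 717 at Day 4. Ttr, the thyroxine carrier, read 0 and 0 CPM at Day 0, 6.96 and 7.32 at Day 2 and 90.5 and 75.9 at Day 4, 11.7-fold higher (log2 change 3.55 ± 0.11; edgeR, adjusted p = 9.55e-11). Afp, alpha-fetoprotein, rose 21.5-fold, from 1.61 and 2.12 to 45.1 and 33.4 CPM. Apoa1, an apolipoprotein of lipid transport, read 0.167 and 0.441 and then 10.3 and 12.5 CPM; its log2 change of 5.27 was 4.66 without Day 2 replicate 1 and 6.03 without Day 2 replicate 2. Its neighbor Apoa4, 10.2 kb away on chromosome 9 (mm9), had 3 counts over the Day 2 libraries and 111 over the Day 4 libraries, a ratio of 52.1 (95% interval from the counts 17.4 to 256), and its log2 change of 5.54 was 4.9 and 6.2 without Day 2 replicates 1 and 2. The endocytic receptor Cubn, which takes up such proteins, rose from 56.3 and 63.1 to 186 and 119 CPM, while its partner Lrp2 fell from 116 and 139 to 82.7 and 52.3. Trf, the iron carrier transferrin, read 13.4 and 13.6 CPM, then 62 and 58.9, then 7.86 and 9.15, a 7.19-fold fall to below Day 0. The endoderm factor Foxa2 read 32.3 and 36.4 and then 26.4 and 25.7 CPM, Sox17 14.5 and 17.5 and then 19.2 and 14.8, and neither was called. Spink1, a protease inhibitor, fell from 1.07 and 1.1 to 0.568 and 0.208 CPM, with a log2 change of -1.34 that was -2.35 without Day 4 replicate 1. The call of Apoa2 ended without Day 2 replicate 1, Day 2 replicate 2 or Day 4 replicate 1 (adjusted p = 0.105, 0.115 and 0.14 in edgeR's test).

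Parietal endoderm lays down a thick basement membrane of type IV collagen and laminins. Of 15 genes tested, 6 rose and 9 were not called, with a median log2 change of 0.26. Sparc, a collagen-binding matrix protein, rose 3.68-fold, from 158 and 155 to 595 and 556 CPM (log2 change 1.88 ± 0.059; edgeR, adjusted p = 3.5e-11). Col4a1 read 343 and 339 CPM at Day 2 and 855 and 811 at Day 4, 2.44-fold higher, and Col4a2, which shares its promoter and overlaps it in exons on the opposite strand, 206 and 199.7 and then 485 and 461, 2.33-fold higher. The laminin chains were not called: Lama1 read 297 and 299 and then 369.9 and 285 CPM, and Lamc1 636 and 633 and then 734 and 629.8. Of 18 fibrillar collagen and other matrix genes 10 rose and 3 fell, with a median log2 change of 0.79. Beside Col3a1, its neighbor Col5a2, 24.6 kb away on chromosome 1 (mm9), rose 6.09-fold, from 6.86 and 6.22 to 40.7 and 39.3 CPM. Tnc, a matrix protein of migrating cells, rose 8.78-fold, from 2.01 and 2.47 to 18.2 and 21 CPM, and Timp3, an inhibitor of matrix proteases, from 17.5 and 14.9 to 146 and 82.9. Col1a1 rose 3.97-fold to 33.1 and 38.8 CPM while its partner chain Col1a2 was not called at 13.2 and 13.5 and then 10.6 and 11.7. Col18a1, a basement membrane collagen, fell from 1086 and 1006 to 688 and 653 CPM, and Lox, which crosslinks collagen, from 1.27 and 1.23 to 0.306 and 0.485. The small proteoglycan gene Dcn was not called without Day 2 replicate 1 (log2 change 0.71, edgeR, adjusted p = 0.0828).

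Epithelial cells that turn mesenchymal trade E-cadherin for other cadherins. Of 19 genes of these states, 11 rose and 1 fell, with a median log2 change of 1.02. Cdh11, a mesenchymal cadherin, read 0.149 and 0.0604 CPM at Day 0, 5.83 and 5.29 at Day 2 and 129.8 and 118 at Day 4, 22.2-fold higher (log2 change 4.47 ± 0.096; edgeR, adjusted p = 1.51e-12). The intermediate filament gene Vim rose 2.95-fold, from 232 and 245 to 709 and 698 CPM, and N-cadherin (Cdh2) 2.04-fold, from 50.9 and 51.7 to 106 and 104. E-cadherin (Cdh1) read 597 and 601 CPM at Day 2 and 475 and 449 at Day 4, both Day 4 libraries lower, with a log2 change of -0.37 under the cutoff. Of factors that repress E-cadherin, Twist2 rose 5.7-fold, Zeb2 5.29-fold, Snai1 3.94-fold and Zeb1 2.02-fold. Fn1, fibronectin, was the member that fell, from 1780.4 and 1842 to 854 and 813 CPM (2.17-fold); its exons overlap Apol7d on the opposite strand. The tight junction claudin Cldn7 read 8.44 and 8.38 and then 27.9 and 27.3 CPM, 3.28-fold higher, and Cldn6 54.1 and 54.7 and then 97.2 and 92.4. Of 10 keratin and surface epithelium genes 6 rose and 1 fell, with a median log2 change of 0.77. Krt19, a keratin of simple epithelia, rose 8.87-fold, from 15.1 and 13.2 to 116 and 138 CPM, and Krt7 3.12-fold, from 3.01 and 2.73 to 8.73 and 9.36, while Tgm1, a transglutaminase of cornified cells, fell 2.12-fold. Anxa1 was not called without Day 2 replicate 2 (log2 change 0.57), and Trp63 had adjusted p values of 0.0716 and 0.0705 in edgeR's test without Day 2 replicate 1 and Day 4 replicate 1.

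Retinoic acid also drives stem cells toward neural progenitors of the hindbrain and spinal cord. Of 20 progenitor genes tested, 10 rose and 6 fell, with a median log2 change of 0.55. The summed level of all 25 listed genes was 460.3 and 454 CPM at Day 2 and 467 and 471 at Day 4. The SoxB1 factors of the neural plate split: Sox1 read 15.1 and 18.4 CPM at Day 2 and 42.3 and 45.7 at Day 4, 2.64-fold higher, and Sox3 41.4 and 40.9 and then 7.95 and 7.97, 5.17-fold lower. Pax6, a factor of ventral and dorsal progenitors, fell from 68.7 and 67.1 to 29.8 and 42.2 CPM, and Gbx2, of the anterior hindbrain, 3.1-fold, from 109 and 108 to 29.1 and 42.1. The proneural gene Neurog2 rose from a low level: it had 1 count over the Day 2 libraries and 37 over the Day 4 libraries, a ratio of 52.1 (95% interval from the counts 8.79 to 2113), and Nkx6-1, of the ventral spinal cord, 2 and 20, a ratio of 14.1 (3.42 to 124). Without Day 2 replicates 1 and 2 the log2 change of Neurog2 was 7.19 and 4.67 instead of 5.32, and that of Nkx6-1 6.29 and 2.89 instead of 3.62. Pax2 rose from 1.94 and 2.78 to 29.3 and 10.7 CPM; it marks kidney precursors and the midbrain border, and its log2 change of 3.15 was 2.22 without Day 4 replicate 1. Pax8, at 1.27 and 1.5 and then 0.131 and 0.416 CPM, had log2 changes of -1.70 and -3.33 without Day 4 replicates 1 and 2, and Dbx1 2.23 and 4.03 without Day 2 replicates 1 and 2, beside -2.47 and 2.98 with all libraries. Nestin (Nes), an intermediate filament of progenitors and the last of the study's differentiation markers, read 41.1 and 41.2 CPM at Day 0, 37.6 and 37.9 at Day 2 and 59.7 and 53.5 at Day 4. Its log2 change of 0.59 ± 0.075 lay at the cutoff (edgeR, adjusted p = 1.63e-05), and it was not called without Day 2 replicate 1 (0.58) or Day 4 replicate 1 (0.51). En1 was not called without either Day 2 replicate (0.56 and 0.86) or without Day 4 replicate 1 (0.34).

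Genes of differentiated neurons moved both ways: of 17 tested, 3 rose and 4 fell, with a median log2 change of -0.39. Ina, a neuronal intermediate filament, read 84.1 and 82.2 CPM at Day 0, 25.6 and 24.4 at Day 2 and 4.02 and 4.51 at Day 4, 5.93-fold lower; its exons overlap Nt5c2 on the opposite strand. Stmn2, a microtubule regulator of axons, read 119.7 and 129, then 13.1 and 15.4, then 3.45 and 2.5 CPM. Both genes were thus highest in the undifferentiated cells, as was the neuronal tubulin Tubb3, which read 159 and 172 CPM at Day 0 and was not called between 13.2 and 12.1 at Day 2 and 9.13 and 13 at Day 4. The rises were Onecut2, a factor of neurons and endoderm, from 18.6 and 21.7 to 78.9 and 70.4 CPM, and the neurofilament genes Nefl and Nefm, which overlap each other's annotation on opposite strands, with log2 changes of 1.42 and 1.80. Of 12 neural crest genes 5 rose and 4 fell, with a median log2 change of -0.04. Snai2, which drives the exit of crest cells, rose 6.89-fold, from 3.31 and 3.53 to 23.3 and 23.8 CPM, Twist1 4.87-fold, from 8.74 and 9.61 to 37.3 and 52.6, and Sox9 2.77-fold, from 23 and 24.1 to 58.6 and 72.6; mesenchyme and, for Sox9, cartilage express them too. Sox10, which marks crest more narrowly, read 1.37 and 1.06 and then 0.0437 and 0.347 CPM, a log2 change of -2.88 that was -1.81 without Day 4 replicate 1 and -4.64 without Day 4 replicate 2. Foxd3, a crest and stem cell factor, read 90.1 and 95.9 CPM at Day 0, 2.24 and 1.72 at Day 2 and 0.568 and 0.763 at Day 4. Tfap2b had 3 and 25 counts over the libraries of each day, a ratio of 11.7 (95% interval from the counts 3.58 to 60.7); its log2 change of 3.43 was 2.3 without Day 2 replicate 1 and 6.74 without replicate 2. The call of Ngfr ended without Day 4 replicate 1 (log2 change -0.15) or Day 2 replicate 1 (-0.55).

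Trophoblast genes were few: of 8 tested, 3 rose and 2 fell, with a median log2 change of 0.19. Gata3, a zinc finger factor of trophoblast and surface epithelium, read 46.3 and 44.1 CPM at Day 2 and 214 and 182 at Day 4, 4.38-fold higher. Elf5, a trophoblast stem cell factor, had 3 counts over the Day 2 libraries and 24 over the Day 4 libraries, a ratio of 11.3 (95% interval from the counts 3.42 to 58.4). Its log2 change of 3.35 was 2.76 without Day 2 replicate 1 and 4.01 without replicate 2. The placental hormone genes Prl3d1 and Tpbpa did not pass the count filter. Cdx2, of trophoblast and the tail bud, fell from 3.75 and 3.48 to 1.4 and 1.59 CPM.

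BMP ligands and targets had 9 of 18 higher and 1 lower, with a median log2 change of 0.52. Bmp5, a ligand, rose 14.5-fold, from 1.64 and 1.54 to 23.1 and 23.4 CPM, and Grem1, a secreted BMP antagonist, from 0.134 and 0.176 to 2.27 and 2.5. The direct targets Id3, from 199 and 177 to 294 and 320.5 CPM, and Id2, from 148 and 147 to 218 and 255, rose as well, Id2 not being called without Day 4 replicate 2 (log2 change 0.57). Hedgehog genes had 6 of 13 higher and 1 lower, with a median of 0.26. The ligand Shh read 2.41 and 3.13 CPM at Day 2 and 32.9 and 40.7 at Day 4, 13.4-fold higher, and Ihh 7.77 and 6.48 and then 59.1 and 68.1, 8.83-fold higher. Gli1, whose transcription reports the pathway's activity, rose 3.45-fold, from 16.7 and 14.4 to 48.3 and 60.2 CPM, and the receptor and target Ptch1 2.29-fold, from 196 and 189 to 424 and 457. Dhh, the other ligand, had a log2 change of 1.45 that was 2.15 without Day 2 replicate 1, and Gli3 was not called without Day 4 replicate 1 (0.50).

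FGF ligands, receptors and feedback genes had 5 of 17 higher and 6 lower, with a median log2 change of -0.51. The receptor Fgfr3, the largest rise of the list, went from 1.91 and 1.63 to 8.25 and 13.7 CPM, 6-fold higher. Fgfr1 read 378 and 352 CPM at Day 2 and 229.9 and 210.3 at Day 4, 1.66-fold lower, and Fgfr2 102 and 109.7 and then 247 and 233, 2.27-fold higher. The ETS factor Etv5 fell from 176 and 182 to 31.4 and 31.8 CPM (5.66-fold) and the phosphatase Dusp6 from 162 and 167 to 51.3 and 39 (3.6-fold). Dusp6 had read 137 and 141 CPM at Day 0, so its level held to Day 2, unlike that of the feedback inhibitor Spry4, which went from 257 and 267 to 13.8 and 13.9 and then 7.47 and 5.34. Fgf17, a ligand, fell from 1.24 and 0.793 to 0.131 and 0.139 CPM after 74.8 and 83.3 at Day 0. Wnt targets and antagonists had 5 of 12 higher and 5 lower, with a median of 0.45. The secreted antagonists split: Sfrp1 rose 2.87-fold, from 135 and 134 to 403 and 368 CPM, and Sfrp5 fell 2.31-fold, from 166 and 161 to 66.5 and 76.2. The feedback inhibitor Nkd1 rose from 6.36 and 6.3 to 20.4 and 27 CPM, Notum fell from 8.81 and 8.68 to 3.01 and 2.01, and Axin2, the most used reporter of the pathway, was not called at 18.5 and 16 and then 22.3 and 21.2. Znrf3 was not called without Day 2 replicate 1 or Day 4 replicate 1 (log2 changes 0.53 and 0.56), nor Dkk1 without either Day 2 replicate or Day 4 replicate 2 (0.78, 0.56 and 0.18).

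Notch genes had 5 of 15 higher and 4 lower, with a median log2 change of 0.14. Of the ligands, Dll1 fell 3.99-fold, from 11.5 and 12.8 to 2.66 and 3.54 CPM, and Jag2 2.77-fold, from 29 and 27.1 to 10.2 and 10.1, while Jag1 rose 3.55-fold, from 5.56 and 5.73 to 23.3 and 16.2. The effector genes Hey1, Hey2 and Heyl rose, Hey2 from 1.27 and 1.23 to 4.24 and 4.79 CPM, and Hes1 was not called at 62.8 and 71.2 and then 74.3 and 72.7. Dll4 was not called without Day 2 replicate 1 (edgeR, adjusted p = 0.0746). Hippo targets had 4 of 10 higher and 1 lower, with a median of 0.66. Crim1, a BMP-binding membrane protein whose exons overlap Fez2 on the opposite strand, rose 2.57-fold, from 10.8 and 11.4 to 29.7 and 27 CPM, and the receptor kinase Axl 2.47-fold, from 16 and 12.9 to 33.1 and 39. The secreted relatives Cyr61 and Ctgf moved apart: Cyr61 read 18.6 and 19 and then 43.2 and 29 CPM, and Ctgf 24.4 and 26 and then 18.7 and 13.1, with a log2 change of -0.63 that was -0.43 and not called without Day 4 replicate 2.

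IGF ligands, receptors and binding proteins had 9 of 10 higher and 1 lower, with a median log2 change of 1.57, and their summed level went from 387 and 394 CPM at Day 0 to 1219 and 1224 at Day 2 and 3655 and 3448 at Day 4. Igfbp5 read 148 and 136 CPM at Day 2 and 1374 and 1009.6 at Day 4, 8.4-fold higher (log2 change 3.07 ± 0.12; edgeR, adjusted p = 2.41e-10). Igfbp2, which lies 5.46 kb from it on chromosome 1 (mm9), read 217 and 208 and then 59 and 70.9 CPM, 3.29-fold lower (log2 change -1.72 ± 0.08; edgeR, adjusted p = 1.03e-09). These neighbors moved in opposite directions in both libraries. Igfbp7, a vessel-associated relative, rose from 0.569 and 0.749 to 24.5 and 16.1 CPM, its exons overlapping Polr2b on the opposite strand. Igf1r was not called without Day 2 replicate 1 (log2 change 0.53) or Day 4 replicate 1 (0.38), nor Igf2r without Day 4 replicate 1 (0.54). Of 19 imprinted genes 7 rose and 1 fell, with a median of 0.46. Plagl1, a zinc finger factor that regulates other imprinted genes, rose 7.83-fold, from 24 and 25.8 to 186 and 204 CPM (log2 change 2.97 ± 0.074; edgeR, adjusted p = 3.83e-12). H19 and Igf2, 72.6 kb apart on chromosome 7 (mm9), rose together although they are expressed from opposite parental alleles. Sgce was the member that fell, from 27.2 and 29.8 to 17.2 and 17.6 CPM, and its neighbor Peg10 was not called at 2649.5 and 2848 and then 2214 and 2071.

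RNA-binding proteins and Hmga factors of the fetal state had 2 of 8 higher and 3 lower, with a median log2 change of -0.31. Lin28b, which blocks maturation of the let-7 microRNA, fell 2.34-fold, from 83.1 and 92.8 to 35.9 and 39.5 CPM, and Lin28a 2.12-fold, from 165 and 168 to 76.3 and 81. Hmga2, a chromatin protein and let-7 target, rose 2.41-fold, from 117 and 127 to 277 and 312 CPM. At Day 0 Lin28a read 683 and 707 CPM and Hmga2 23.6 and 21.5, so both kept the direction they had taken by Day 2, whereas Lin28b read 81 and 76.9 and turned down after Day 2.

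Mitotic genes are transcribed mainly in G2 and M phase. Of 18 tested, 16 fell and 2 were not called, with a median log2 change of -0.72. Ccnb2, a cyclin that activates Cdk1, read 228 and 226 CPM at Day 0, 159 and 158 at Day 2 and 73.8 and 74.8 at Day 4, 2.13-fold lower (log2 change -1.09 ± 0.056; edgeR, adjusted p = 2.75e-09). Nusap1, a spindle protein whose exons overlap Oip5 on the opposite strand, fell 1.92-fold, from 121 and 134 to 63 and 70.4 CPM. The kinase Cdk1 read 163 and 168 CPM at Day 2 and 95.5 and 107 at Day 4, and topoisomerase Top2a 657 and 678 and then 352 and 397. Both Day 4 libraries were below both Day 2 libraries in each. The calls of Aurka and Ccna2 ended without Day 4 replicate 1 (log2 changes -0.46 and -0.58) and that of Bub1b without Day 2 replicate 1 (-0.56), all near the cutoff. DNA replication genes, used in S phase, had 6 of 20 lower and 14 not called, with a median of -0.42. Cyclin E1 (Ccne1) fell 1.85-fold, from 72.1 and 71.7 to 33.7 and 44.9 CPM after 402 and 408 at Day 0, and the replication factor Mcm10 1.62-fold, from 73.7 and 67.3 to 42.8 and 44.4. The helicase subunit Mcm2, at 439 and 411 and then 292 and 329 CPM, and most others lay lower at Day 4 without reaching 1.5-fold, and Tyms was not called without Day 4 replicate 1 (-0.53).

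Cyclins of the D type and inhibitors of cyclin-dependent kinases had 5 of 10 higher and 5 not called, with a median log2 change of 0.33. Cdkn1c (p57), an imprinted inhibitor, read 107 and 106 CPM at Day 2 and 229 and 288 at Day 4, 2.42-fold higher. Cdkn1a (p21) read 36.4 and 33.9 and then 81.1 and 79.2 CPM, 2.28-fold higher, and Cdkn2b (p15) 9.31 and 7.36 and then 20.7 and 20.2, 2.44-fold higher. Ccnd1 was not called without Day 4 replicate 2 (log2 change 0.53), nor Cdkn2a without Day 2 replicate 2 (0.55) or Day 4 replicate 1 (0.57). Targets of p53, which include Cdkn1a, had 2 of 15 higher and 1 lower, with a median of 0.41. The other rise, the receptor gene Eda2r, was not called without Day 2 replicate 2 (0.57) or Day 4 replicate 1 (0.41), and Pmaip1 (Noxa), which promotes cell death, fell from 15.9 and 17.9 to 6.33 and 5.69 CPM. Mdm2, the ligase that degrades p53, was not called at 123 and 124 and then 203 and 163 CPM.

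Promoters of the mitotic genes were read for letters they share. Of the 18 genes 14 matched a RefSeq promoter, and 13 of these (92.9%) hold CCAAT, the site form bound by NF-Y, on either strand. The share was 41.1% of all 27025 genes with a promoter and 42.6% of matched tested genes. TTTGAA or TTCGAA, the core of the cell cycle genes homology region, was in 11 of 14 (78.6%), against 21.7% and 16.2%. Of 16 matched DNA replication genes, 12 (75%) hold CCAAT and 7 (43.8%) TTTGGCGC or TTTCGCGC, an E2F site form. That E2F form is held by 0.929% of all genes with a promoter, 1.68% of matched tested genes and 1 of the 14 mitotic genes. Stretches of 150 bases up to the start of 4 mitotic genes that fell are shown, since each carries the motif CCAAT, which reads as ATTGG on the opposite strand. Those of Cdc20, Cdk1 and Top2a also carry TTTGAA (read as TTCAAA on the opposite strand) or the variant TTCGAA, while the matches of Ccnb2 to this second motif lie outside the bases shown. Both motifs are in capitals. They run 5′ to 3′ on the minus strand of GRCm38.p6, from chr9:70421555-70421704 for Ccnb2, chr4:118437344-118437493 for Cdc20, which activates the anaphase ligase, chr10:69352913-69353062 for Cdk1 and chr11:99024190-99024339 for Top2a. These matches are descriptions of letters.
Ccnb2: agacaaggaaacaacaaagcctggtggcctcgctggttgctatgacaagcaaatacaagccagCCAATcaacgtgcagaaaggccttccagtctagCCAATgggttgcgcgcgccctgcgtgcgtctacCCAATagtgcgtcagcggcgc
Cdc20: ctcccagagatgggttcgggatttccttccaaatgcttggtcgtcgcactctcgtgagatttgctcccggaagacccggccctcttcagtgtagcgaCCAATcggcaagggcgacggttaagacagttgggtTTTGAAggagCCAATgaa
Cdk1: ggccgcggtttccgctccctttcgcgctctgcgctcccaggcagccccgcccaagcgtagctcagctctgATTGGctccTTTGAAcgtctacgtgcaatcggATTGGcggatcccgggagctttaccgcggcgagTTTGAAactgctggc
Top2a: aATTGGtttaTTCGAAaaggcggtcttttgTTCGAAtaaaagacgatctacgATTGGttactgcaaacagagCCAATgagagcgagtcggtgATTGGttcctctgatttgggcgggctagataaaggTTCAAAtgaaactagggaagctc

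Base composition was read in the promoters matched to 1476 of 2023 genes called higher, 1698 of 2340 called lower and 8460 of 10962 not called. The median ratio of observed to expected CpG was 0.642 for genes called higher, 0.603 for genes called lower and 0.778 for genes not called. Over all matched tested genes the median ratio was 0.743, and over all genes with a promoter 0.389. It was 0.479 for 344 matched genes at least 4-fold higher and 0.407 for 272 at least 4-fold lower. TATAAA was in a promoter of 12% of matched genes called higher, 10.2% of those called lower and 8.18% of those not called, on either strand. Over all genes with a promoter it was 15.7%. In mm9, 13729 tested genes (89.6%) had 1 position. Among 13275 pairs of neighboring protein-coding genes tested, both were called in 1212, of which 794 moved in the same direction and 418 in opposite directions. The 28.5% called over all genes tested is a share of single genes and not a background for pairs. No background for pairs was computed, and a link of these pairs to position was not tested.

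Glycolysis splits glucose for energy and building blocks. Of 20 genes tested, 8 fell and 12 were not called, with a median log2 change of -0.40. The glucose transporter Slc2a3 read 1220.4 and 1220.0 CPM at Day 2 and 663 and 519 at Day 4, 2.06-fold lower, and Slc2a1 763 and 748 and then 465 and 349, 1.85-fold lower. Aldoc, a brain form of aldolase, fell 2.69-fold, from 18.5 and 17.6 to 5.81 and 7.91 CPM. Pdk1, a pyruvate dehydrogenase kinase, fell 1.99-fold, from 86.2 and 88.2 to 44 and 43.5. Pfkp was not called without Day 4 replicate 2 (log2 change -0.57), and the counts of Gapdh, Eno1, Pgk1 and Pgam1 may be affected by near-identical gene copies, which was not tested here. Hypoxia genes had 1 of 12 higher and 4 lower, with a median of -0.05: Car9, a carbonic anhydrase, read 2.71 and 2.69 and then 0.175 and 0.485 CPM, with a log2 change of -3.16 that was -2.46 without Day 4 replicate 1 and -3.91 without Day 4 replicate 2. Egln3, an oxygen-sensing hydroxylase, fell 3.5-fold, from 14.2 and 13.3 to 3.19 and 4.92 CPM, and Vegfa was not called at 66.2 and 69 and then 73 and 67.3. Cholesterol synthesis genes had 1 of 15 lower and 14 not called, with a median of -0.22; that gene was the isomerase Idi1, not called without Day 4 replicate 1 (edgeR, adjusted p = 0.0641). Ribosome biogenesis and Myc genes had 2 of 20 higher and 2 lower, with a median of -0.17. Mycn rose 1.92-fold, from 50.5 and 48.2 to 85.4 and 106 CPM, and Myc from 15.8 and 18.5 to 23.6 and 30, which was not called without Day 2 replicate 1 (log2 change 0.52) or Day 4 replicate 2 (0.47). Mycl fell from 62.5 and 61.7 to 33.9 and 33.4 CPM, and so did Dkc1, a pseudouridine synthase whose exons overlap Mpp1 on the opposite strand, from 233 and 252 to 156 and 152.

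Chromatin genes bear on the study's question, since the study proposes the PBAF remodeler as a reader of acetylated H2A. It also saw PBAF members bind acetylated H3 and H4 peptides. Of 24 BAF and PBAF subunits 5 rose and 19 were not called, with a median log2 change of 0.22. The subunits that set PBAF apart were not called: Pbrm1 read 229 and 247 CPM at Day 2 and 269 and 246 at Day 4, Arid2 199 and 203 and then 224 and 201, and Brd7 165 and 173 and then 190.1 and 193. The rises were Dpf3, a heart and neuron subunit, from 0.569 and 0.441 to 4.24 and 3.05 CPM, the alternative ATPase Smarca2, from 28.6 and 31.7 to 52.9 and 58.1, and Dpf1, Bcl7a and Smarcd3. The ATPase Smarca4 was not called at 507 and 507 and then 615 and 637 CPM. H2A variants, enzymes of histone acetylation and H2A carriers such as Nap1l1 and Ipo9 had 0 of 13 called by edgeR and 0 by DESeq2, with 9 at an unadjusted p under 0.05 in edgeR and a median of -0.03. The counts of H2afz may be affected by near-identical gene copies too. H2afx, the variant phosphorylated at DNA breaks, read 297 and 293 and then 227 and 245 CPM, and the acetyltransferase Kat5 56 and 57.5 and then 55.9 and 57.8. Of 18 Polycomb genes 2 rose and 16 were not called, with a median of -0.09. Cbx8, a reader of the Polycomb mark, rose from 6.6 and 5.07 to 9.39 and 11.4 CPM, and the methyltransferase Ezh2 lay just under the cutoff at 185 and 199 and then 123 and 135.

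DNA methylation genes had 2 of 8 higher and 3 lower, with a median log2 change of -0.25. The methyltransferases that set new marks split: Dnmt3a read 291 and 284 CPM at Day 2 and 483 and 487 at Day 4, 1.69-fold higher (log2 change 0.75 ± 0.063, edgeR, adjusted p = 3.06e-07). After removal of a trend with exonic length Dnmt3a was not called (log2 change 0.56). Dnmt3b read 321 and 324 CPM at Day 0, 76.9 and 78.3 at Day 2 and 34.6 and 34.4 at Day 4, 2.25-fold lower (log2 change -1.17 ± 0.061; edgeR, adjusted p = 3.2e-09). Among the Tet dioxygenases, which oxidize methylcytosine, Tet3 rose from 90.3 and 91 to 161 and 153 CPM, and Tet1 fell from 109 and 128 to 85.2 and 69.6 after 1264 and 1077 at Day 0. Without Day 2 replicate 2 or Day 4 replicate 2 Tet1 was not called (log2 changes -0.50 and -0.48), nor was Uhrf1, which guides maintenance methylation, without Day 4 replicate 1 (-0.55).

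Immediate early genes answer within minutes to growth factors and handling. Of 13 tested, 6 rose and 1 fell, with a median log2 change of 0.54. Fosl2, an AP-1 subunit, rose 7.47-fold, from 9.41 and 7.63 to 70.7 and 57.1 CPM, and Fosb from 0.268 and 0.397 to 1.05 and 1.04. Jun, the main AP-1 partner, was not called at 155 and 156 and then 192 and 142 CPM, its replicates differing more at Day 4. Atf3, a stress factor, fell 3.83-fold, from 14.8 and 17.9 to 4.06 and 4.51 CPM, and Egr1 was not called without Day 4 replicate 2 (log2 change 0.43).

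The same days in the shCTSL line share no library with this comparison. The shCTSL Day 2 replicates stood apart, with a standard deviation of the log2 ratio of 0.606, against 0.176 in the control line. Their average variance was 131-fold above counting noise, against 10.2-fold. Both averages include Rn45s, which took 3.43 and 0.553% of the counts in shCTSL Day 2 replicates 1 and 2. In a separate fit of that line, 2262 of 15116 genes (15%) were called between Day 4 and Day 2, 1090 higher and 1172 lower. Of 14977 genes tested in both lines, 4237 were called in the control line and 2238 in shCTSL, and 2013 were called in both with the same direction, which is 47.5% of the control line's calls and 89.9% of those of shCTSL. In 1 fit of all 12 libraries it was 2721 of 3689 control line calls. In opposite directions 0 genes were called. Leaving 1 library of Day 2 or Day 4 out gave 13 such genes for shCTSL Day 2 replicate 1, 21 for its replicate 2, 1 for shSC Day 4 replicate 2 and 0 for the other 5. The overlap in the same direction rests on single shCTSL libraries: it was 233 without shCTSL Day 4 replicate 1, 357 without Day 4 replicate 2 and 3060 without Day 2 replicate 2. The 2224 genes called in the control line only are not shown to differ, since the test of the difference itself called 0 of 15532 genes (0%) in edgeR, with 753 at an unadjusted p under 0.05 and a smallest adjusted p of 0.32, and 11 genes in DESeq2. Without shCTSL Day 2 replicate 1 edgeR called 567 genes, and without Day 2 replicate 2 it called 2323. Side by side, the log2 change of Col3a1 was 6.58 in the control line and 7.17 in shCTSL, that of Aldh1a2 5.58 and 5.51, that of Lefty2 -3.64 and -3.35, and that of Pou5f1 -1.78 and -1.96. That of Kdr was 0.17 and 1.25, and Kdr was called in neither line (edgeR, adjusted p = 0.0559 in shCTSL). The shCTSL Day 2 replicates of Kdr read 25.5 and 52.9 CPM. Its difference between the lines was not called (edgeR, adjusted p = 0.959). The log2 change of Pou3f1 was 1.72 in the control line and -0.04 in shCTSL. Pou3f1 was 1 of the 11 genes of the DESeq2 test of the difference (adjusted p = 0.0155 in DESeq2).

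The test was edgeR's quasi-likelihood F test on the 6 control libraries, with Benjamini-Hochberg adjustment over all genes tested. With 2 libraries per day the spread of a gene is largely borrowed from the other genes, so a gene that varies more than most can be called too easily. Of the 366 calls among list members and singly named genes, 26 ended in a fit of all 12 libraries, among them Peg3, Mdk, Gli2, Spink1, Tet3 and Trim71, 18 in DESeq2, among them Bmp2, Lox, Wnt3 and Wnt8a, and 3 (Ctsc, En1 and Igf1r) with a replicate block.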

How the data were processed

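Poly(A) RNA was sequenced from 12 libraries, and the authors deposited a table of counts per RefSeq gene, with 2 libraries per line and day. The authors checked reads with FastQC 0.11.2 and aligned them with STAR 2.3.0e (mm9). SAMtools 0.1.19 then took out low mapping quality, mitochondrial and non-chromosome alignments, and featureCounts 1.6.2 counted the rest; the strand setting of the counting was not given in the sources used. They tested with DESeq2 1.16.1.

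From these counts, edgeR 4.0.16 (limma 3.58.1) in R 4.3.3 kept genes passing filterByExpr with a minimum count of 10, scaled the 6 shSC libraries (13434182 to 27155553 counts) with TMM factors, and ran the quasi-likelihood F test of Day 4 against Day 2 with Benjamini-Hochberg adjustment. Called means an adjusted p under 0.05 and at least 1.5-fold. The shCTSL libraries were fitted apart, and the difference between lines in a fit of all 12. For genes with at most 3 counts over the 2 libraries of a day, exact 95% intervals of the ratio were computed. DESeq2 1.42.0 served as the other tool. Positions came from a GENCODE annotation of mm9, promoters from RefSeq (GRCm38.p6). The calling was tried on counts simulated from the fit's own model and spreads, with 200 of 15325 genes changed. The changed genes left out the least abundant ones, and their directions were balanced. Of 50 genes changed 1.5-fold, 25 were called in the right direction, and of 50 changed 2-fold, 50 were. Of 15125 unchanged genes, 4 were called.

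Genes named were those the study names, the 12 highest and 12 lowest log2 changes and the 8 largest rises and falls in CPM among called genes reaching 10 CPM on the higher day with no overlap between days (without predicted loci, small and ribosomal RNAs), and in each list the 2 largest called rises and falls; other list members are also given, and some genes are not reported here. Members, lists and the named rule were chosen with earlier results of these data known. Alternatives were RLE factors, DESeq2, filters, the libraries in the fit, fold cutoffs, glmTreat, a replicate block, each library left out, library totals only and removal of a trend with exonic length. All columns of counts were used. Figures were drawn with matplotlib 3.10.9 in Python 3.11.15.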

Additional observations from a re-analysis of the deposited data

How the results depend on the processing

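The comparison called 4363 genes, 2023 higher and 2340 lower. The 3 counts stayed within 1.5 times of these values with RLE factors, DESeq2, no count filter, a minimum of 1 CPM, the 4 libraries alone, all 12 libraries and a replicate block (4335, 2013 and 2322). Leaving out 1 control library gave 3878 to 4671 called genes, 1797 to 2184 higher and 2077 to 2487 lower, where a lone library is assumed to vary like the other groups. With no fold cutoff the counts were 8753, 4346 and 4407. With a log2 cutoff of 1.5 they were 1478, 734 and 744, and with glmTreat against 1.5-fold 2737, 1292 and 1445; both ask for larger changes by construction. Library totals only (4402, 1840 and 2562) and removal of a trend with exonic length (3878, 1850 and 2028, over 13729 genes) were chosen after seeing the data. In no setting did a call turn direction.

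Of the 366 calls among list members and singly named genes, 82 ended under glmTreat, 26 in the fit of all 12 libraries, 18 in DESeq2, 15 each with library totals only and with the length trend removed, 5 without a count filter and 3 with the replicate block; the cause was not tested.

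The 2013 genes called in both lines in the same direction became 907 with a log2 cutoff of 1.5 and 1403 with the replicate block, and 233 to 3060 with 1 library left out. The 0 genes whose change differed between the lines became 11 in DESeq2, stayed 0 in edgeR with RLE factors, no fold cutoff and the replicate block, and were 0 to 2323 with 1 library left out. Counts of labels paired by replicate number shared little: the log2 ratios of replicate 2 to replicate 1 correlated across genes by -0.0183 between Day 0 and Day 2, 0.0412 between Day 0 and Day 4, and -0.0479 between Day 2 and Day 4, so the pairing of the block rests on a shared number only. Depth limits genes of few counts: an interval of 111 to 24582 surrounds the ratio of Agtr2.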

Other observations

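The loci Rn45s, Lars2 and Mir6236 differed between the 2 control Day 2 libraries. Rn45s read 1543 and 6649 normalized CPM in Day 2 replicates 1 and 2 and 13712 and 9858 at Day 4, Lars2, a mitochondrial leucine tRNA ligase gene, 127.1 and 537.6 and then 895.8 and 645.4, and the microRNA locus Mir6236 76.3 and 448.3 and then 948.9 and 697.1. Day 2 replicate 1 was the lowest library for all 3.

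Between Day 0 and Day 4 some genes were first counted late. Of the genes called higher at Day 4 against Day 2, 81 had no count in either Day 0 library. The genes called higher held 5.19% of normalized counts at Day 2 and 11.6% at Day 4, and the genes called lower 7.96% and 4.09%.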
